A study of Mus musculus with 32 samples.

Results

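The genes described are 7 cardiac transcription factors, Gata4, Gata6, Tbx5, Tbx20, Nkx2-5, Hand2 and Mef2a. They were taken by symbol from a table of 27179 genes measured after pulldown of RNA carrying N6-methyladenosine (m6A), and all 7 were found. Mouse heart, brain, kidney and liver were either fixed in 10% formalin and embedded in paraffin (FFPE) or flash frozen. RNA was sheared, pulled down with an antibody against m6A and sequenced after depletion of ribosomal RNA, and the table has 1 column for each organ and preservation, here called a library. The 8 groups are therefore FFPE heart, brain, kidney and liver, and frozen heart, brain, kidney and liver, with 1 library each. The sources used here do not state strain, genotype or age of the mice, nor whether tissue was pooled.

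These factors bind DNA together at the enhancers and promoters of heart genes. GATA4 and GATA6 are zinc finger proteins that recognise a GATA core, TBX5 and TBX20 are T-box proteins, NKX2-5 is a homeodomain protein, HAND2 is a basic helix-loop-helix protein that binds E-boxes, and MEF2A is a MADS-box protein that binds an AT-rich element. In the embryo they direct the forming and looping of the heart, and in the adult heart muscle they keep genes of the sarcomere, of ion channels and of the natriuretic peptides active. Several also work outside the heart: GATA4 and GATA6 in endoderm and its derivatives, HAND2 in limb and neural crest, and MEF2 proteins in muscle, neurons and lymphocytes.

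RefSeq upstream sequences (build GRCm38.p6, the assembly of mm10) were matched for 4 of the 7 genes: Tbx20, Nkx2-5, Hand2 and Mef2a. A window of 250 bases before to 50 bases after 1 start per gene, the one in the RefSeq table, was searched on both strands for the motifs of the factors themselves, since such factors are known to regulate one another. For GATA factors the searched letters were AGATAA or AGATAG, along with TGATAA or TGATAG. For NKX2-5 they were TNAAGTG, for the T-box proteins AGGTGT, and for HAND proteins CATCTG. For MEF2 proteins the pattern was C or T, then TA, then 4 bases that are each A or T, then TA, and last A or G. The Hand2 and Nkx2-5 windows are printed because these were the 2 genes with 0 counts in both libraries of an organ, and the Mef2a site because it lies across that start. The Nkx2-5 and Mef2a starts lie 3423 and 3598 bases inside the outermost span annotated for the gene, and other starts were not searched. Each is given 5′ to 3′ in lower case, with motif matches in capitals.
Hand2, chr8:57320733-57320982, plus strand: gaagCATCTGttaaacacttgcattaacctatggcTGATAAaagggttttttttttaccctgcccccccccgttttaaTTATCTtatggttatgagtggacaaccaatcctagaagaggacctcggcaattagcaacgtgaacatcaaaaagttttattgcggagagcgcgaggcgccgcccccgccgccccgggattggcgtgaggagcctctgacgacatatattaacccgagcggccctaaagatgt
Nkx2-5, chr17:26841566-26841815, minus strand: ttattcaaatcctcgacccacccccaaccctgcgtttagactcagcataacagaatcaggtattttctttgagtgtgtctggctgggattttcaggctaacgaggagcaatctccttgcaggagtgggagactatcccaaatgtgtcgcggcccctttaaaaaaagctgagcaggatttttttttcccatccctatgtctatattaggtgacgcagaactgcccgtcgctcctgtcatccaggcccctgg
Mef2a MEF2 element, chr7:67372841-67372870, minus strand: ggcctgactcCTAAAAATAGccccggtgtg

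The Hand2 window held 2 GATA matches, starting 215 and 172 bases before the start, and 1 CATCTG match. A GATA match was present in 29.8% of 32851 RefSeq windows of the same length, and CATCTG in 17.2%. The Mef2a element began 2 bases before the start and ran past it, and the MEF2 element was present in 3.19% of the windows. The Nkx2-5 and Tbx20 windows held no match to any of the 5 motifs, which says only that these letters are not in these windows (NKX2-5 motif in 11.5% and T-box motif in 13.7% of all windows). The base content differed: the Tbx20 and Mef2a windows had a GC content of 68.3% and 62.3% and held 26 and 27 CpG, while Nkx2-5 and Hand2 had 51.7% and 50.3% with 9 and 17 CpG, against medians of 52.7% and 7 CpG over all windows. None of these matches was tested as a binding site.

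Library totals ran from 9603050 gene counts (FFPE brain) to 21523379 (frozen brain), of which 3050241 (FFPE liver) to 8004550 (frozen brain) lay outside ribosomal genes. Levels are log2 CPM (counts scaled to a common library size, as set by the authors), so a step of 1 is a doubling. The level of 3 counts, below which a library says little, lay between -3.29 (frozen brain) and -0.86 (FFPE liver). The organ labels held against defining markers: the 16 cardiomyocyte markers summed to 47757 and 41894 CPM in FFPE and frozen heart and to 84.9 to 247 in the other 6 libraries. Xist, an RNA of females, had 2693 to 6685 counts in the 4 FFPE libraries and 5 to 26 in the 4 frozen ones. The Y-linked gene Ddx3y had 43 to 125 counts in the FFPE libraries and 294 to 700 in the frozen ones, so the FFPE libraries held RNA of both kinds, and animals and preservation cannot be told apart. An m6A pulldown level depends on both the amount of an RNA and its methylation. The input libraries were not analysed here, so every value below is a pulldown level. In whole organs, fewer cells of a type and less RNA per cell cannot be told apart.

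The first question was in which organs the factors' RNA was recovered. All 7 were highest in heart, in FFPE and in frozen tissue alike, on the authors' scaling. For Gata4 and Gata6 the order was heart, liver, kidney and brain. Tbx20 had heart above liver and liver above the overlapping kidney and brain libraries, Tbx5 had heart alone apart, with 0 to 9 counts in each other library, and Hand2 had kidney and brain at or below the level of 3 counts, with no order between them. Nkx2-5 was at or below that level in all 3 organs outside heart. Mef2a had another order, heart, brain, kidney and liver, and was well measured in all 4 organs; with libraries scaled by total gene counts its heart minus brain difference turned to -0.88.

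**Figure D1:**
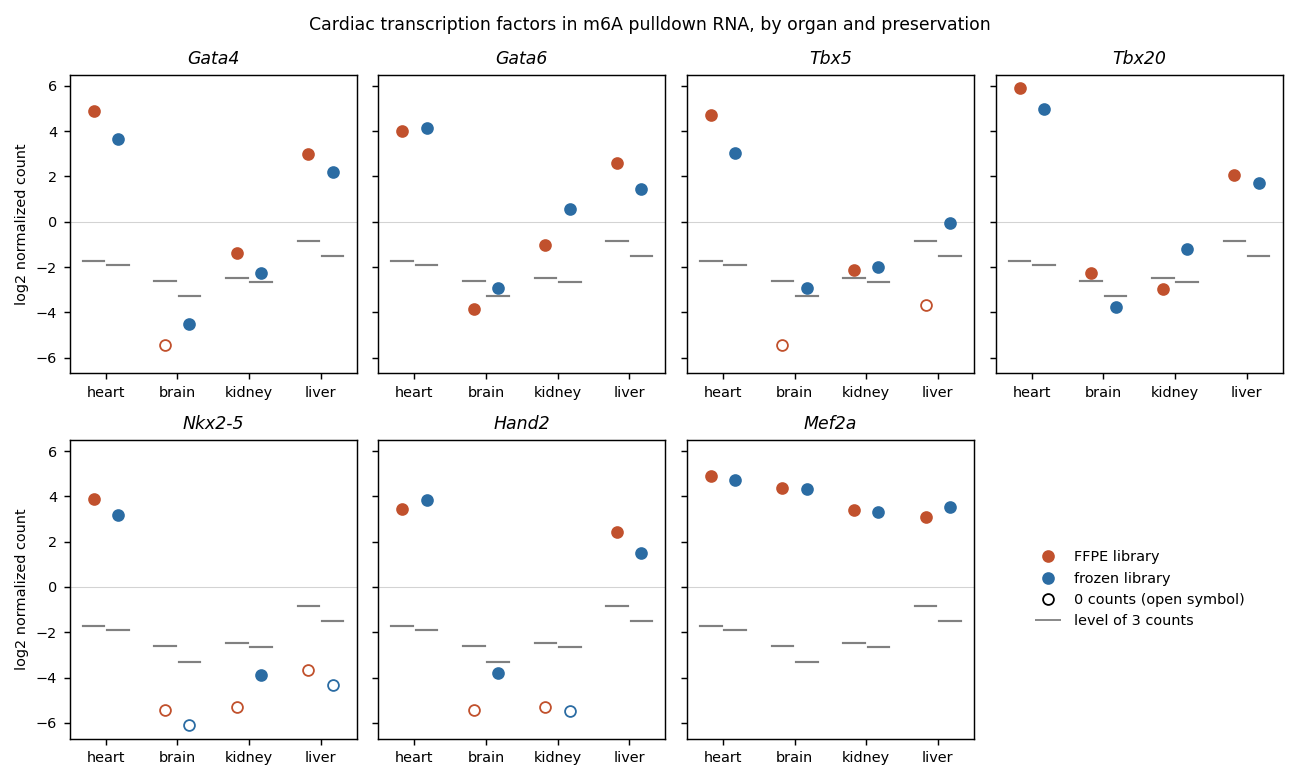
Level of each factor (log2 normalized count, vertical axis) in heart, brain, kidney and liver, with the FFPE library left of the frozen one; open symbols are libraries with 0 counts and grey bars mark the level of 3 counts. Heart is the highest organ in all 7 panels on the authors' scaling, liver is second for Gata4, Gata6, Tbx20 and Hand2, and Mef2a stays above 3 everywhere.

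Gata4 (chr14:63198914-63271712) encodes the GATA factor that partners NKX2-5 and TBX5 in heart muscle. Its level was 4.90 in FFPE heart and 3.65 in frozen heart (348 and 162 counts). It was 2.99 and 2.18 in FFPE and frozen liver, -1.38 and -2.28 in kidney, and -5.43 and -4.51 in brain, where it had 0 and 1 count. The 2 heart libraries lay above all others, the liver libraries lay clearly above kidney, and brain was at the floor.

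Gata6 (chr18:11052510-11085636) encodes the relative of GATA4 that also acts in smooth muscle, endoderm and the outflow tract. Its level was 4.01 in FFPE heart and 4.11 in frozen heart (187 and 224 counts). It was 2.60 and 1.45 in FFPE and frozen liver, -1.04 and 0.57 in kidney, and -3.84 and -2.93 in brain. The heart libraries were almost equal, and no organ's pair of libraries overlapped that of another.

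Tbx5 (chr5:119796514-119885220) encodes the T-box factor of the atria, the left ventricle and the conduction system, whose loss in people causes Holt-Oram syndrome. Its level was 4.69 in FFPE heart and 3.04 in frozen heart (299 and 106 counts). It was -3.66 and -0.079 in FFPE and frozen liver (0 and 9 counts), -2.12 and -1.99 in kidney (4 and 5 counts), and -5.43 and -2.93 in brain (0 and 4 counts). Only heart stood apart, since the liver libraries spanned those of kidney and overlapped those of brain.

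Tbx20 (chr9:24720812-24774303) encodes a T-box factor of heart muscle and endocardium. Its level was 5.89 in FFPE heart and 4.96 in frozen heart (691 and 403 counts), and it was 2.06 and 1.69 in FFPE and frozen liver (26 and 32 counts). It was -2.96 and -1.20 in kidney and -2.26 and -3.78 in brain, with at most 9 counts in any of these 4 libraries. Kidney and brain overlapped, and liver lay between them and heart.

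Nkx2-5 (chr17:26838664-26844988) encodes the homeodomain factor that marks cardiac progenitors and is kept on in heart muscle. It had 171 counts in FFPE heart and 118 in frozen heart, at levels of 3.88 and 3.19. It had 0 counts in 5 of the other 6 libraries and 1 count in frozen kidney. Over both libraries of an organ, heart was at least 218-fold above brain and at least 64.1-fold above liver, setting 3 counts over the pair as the most that 0 counts allow. Against kidney, where 1 count was seen, the ratio was 486-fold with a 95% counting interval of 86.6 to 19271.

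Hand2 (chr8:57320983-57324517) encodes the helix-loop-helix factor of the right ventricle, the sympathetic nervous system and the epicardium. Its level was 3.42 in FFPE heart and 3.84 in frozen heart (124 and 185 counts), and 2.45 and 1.51 in FFPE and frozen liver (34 and 28 counts). It had 0 counts in both kidney libraries, and 0 and 2 counts in FFPE and frozen brain. On the same floor heart was at least 173-fold above kidney, and liver at least 52.3-fold above kidney.

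Mef2a (chr7:67231163-67376456) encodes a main MEF2 factor of postnatal heart muscle. Its level was 4.88 in FFPE heart and 4.72 in frozen heart (343 and 341 counts), and 4.38 and 4.34 in brain (448 and 692 counts). It was 3.40 and 3.29 in kidney and 3.10 and 3.51 in FFPE and frozen liver. Heart lay above brain and brain above the overlapping kidney and liver libraries, within a total span of less than 2 on the log2 scale.

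Each organ was then compared with the mean of the other 3 by limma, with a term for organ and a term for preservation, over the 14864 genes with a log2 level above 0 in at least 2 libraries. With 1 library per group, the p-values measure how alike the 2 preservations behaved, not the spread between animals. All 7 factors were higher in heart at a Benjamini-Hochberg adjusted p under 0.05, where 15.9% of all genes tested were called higher and 18.1% lower. Tbx5 and Nkx2-5 entered the test only through their heart libraries, so their calls could only go one way; the other 5 also passed without heart. With no filter on level all 7 were again called, against 8.08% of 27179 genes.

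The differences, heart minus the mean of the other 3 organs, ranged from 1.13 to 8.31. Nkx2-5 had the largest, 8.31 ± 0.94 on the log2 scale (SE; limma adjusted p = 0.000261). Tbx5 followed with 6.56 ± 1.02 (adjusted p = 0.00141), Tbx20 with 6.50 ± 0.64 (adjusted p = 0.000121) and Hand2 with 6.29 ± 0.73 (adjusted p = 3e-04). Gata4 differed by 5.68 ± 0.58 (adjusted p = 0.00015) and Gata6 by 4.59 ± 0.57 (adjusted p = 0.000434). Mef2a was higher in heart by 1.13 ± 0.17 (adjusted p = 0.00137), a 2.19-fold difference, against 24.1-fold for Gata6. With libraries scaled by total gene counts the Mef2a call was lost (0.59, adjusted p = 0.295), while the median of all genes moved to -0.69 instead of -0.15. For the genes at 0 counts in other organs the fitted size depends on the count added before taking logs.

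Heart was then compared with each organ. Over brain 6 factors were called higher in heart (19.1% of all genes), all but Mef2a, which differed by 0.44 ± 0.21 (limma adjusted p = 0.124, 95% interval -0.045 to 0.92). That difference was 0.76 (adjusted p = 0.0179) after quantile normalization. Over kidney all 7 were called higher (13.4% of genes), from 1.46 ± 0.21 for Mef2a (0.66, adjusted p = 0.354, scaled by total gene counts) to 9.0 ± 0.89 for Hand2; Tbx5 lost its call without the FFPE heart or the frozen kidney library (adjusted p = 0.0903 and 0.0669). Over liver 5 were called higher (22.0% of genes). Gata4 and Hand2 were not: heart minus liver was 1.69 ± 0.71 for Gata4 (adjusted p = 0.0894, 95% interval 0.073 to 3.30) and 1.65 ± 0.89 for Hand2 (adjusted p = 0.174, 95% interval -0.37 to 3.68). Both were nevertheless higher in heart within each preservation. Gata6 was called by a small margin, at 2.03 ± 0.70 (adjusted p = 0.0444), and was not called without either heart library or the frozen liver library (1.02 to 2.21, adjusted p from 0.132 to 0.3). Gata4 was called without either brain library (adjusted p = 0.0348 and 0.0391). Without the FFPE heart library 2 factors were called over liver, Nkx2-5 and Mef2a.

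**Figure D2:**
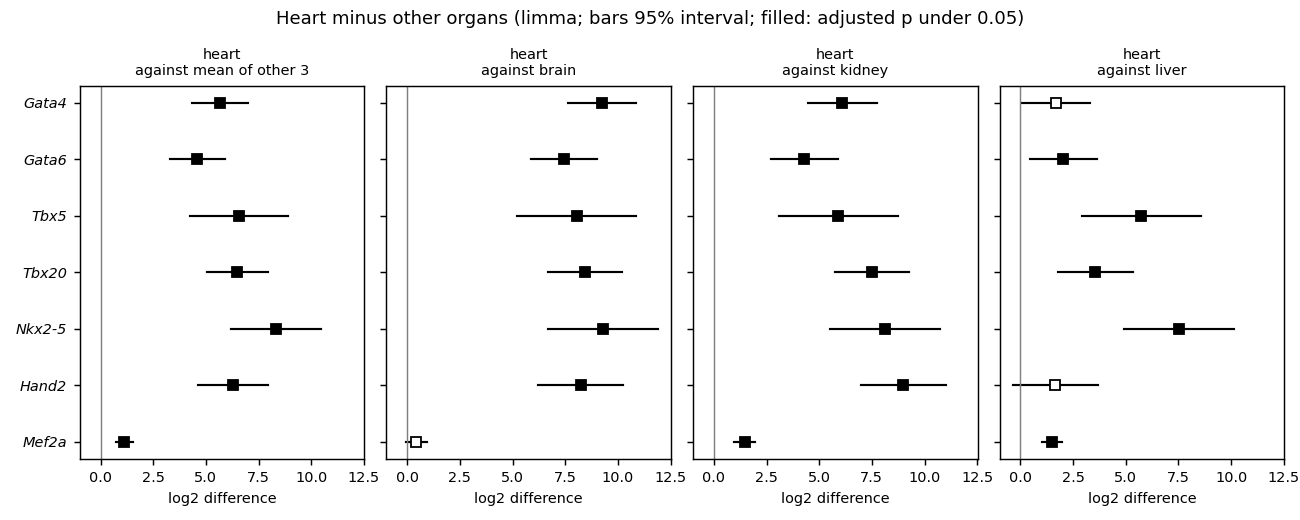
Heart minus the mean of the other 3 organs, and heart minus brain, kidney or liver alone (log2 difference, horizontal axis) for each factor, from limma with 95% intervals; filled squares have an adjusted p under 0.05. Squares are open for Mef2a against brain and for Gata4 and Hand2 against liver.

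The next question was how the factors were placed in the other organs. In liver, Gata4, Gata6, Tbx20 and Hand2 lay below heart in both preservations. They were called higher than the mean of the other 3 organs (20.1% of genes higher), and Mef2a was lower (27.2% of genes lower). That count of 5 fell to 3 without the frozen heart or the FFPE kidney library and to 2 without the FFPE liver library. Directly against kidney the same 4 were called higher in liver (11.5% of genes). Hand2 led with 7.34 ± 0.89 (limma adjusted p = 0.000468), followed by Gata4 with 4.42 ± 0.71 (adjusted p = 0.00198), Tbx20 with 3.96 ± 0.78 (adjusted p = 0.00546) and Gata6 with 2.26 ± 0.70 (adjusted p = 0.04). The Gata6 call was lost without either heart library, the FFPE kidney library or the FFPE liver library (1.25 to 2.26, adjusted p from 0.0626 to 0.345). Scaled by total gene counts it was 0.97, with the median of all genes at -1.38 instead of -0.09. Against brain the same 4 were higher in liver (24.9% of genes), and Mef2a was lower, with a difference of -1.05 (32.3% of genes lower). Tbx5 did not pass in liver against kidney (0.18 ± 1.24, adjusted p = 0.933), nor did Nkx2-5 (0.58 ± 1.15, adjusted p = 0.759), which had no count in liver.

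The liver levels of Gata4, Gata6 and Hand2 were a sizeable share of those in heart, while those of heart muscle genes were not. The share was smaller for Tbx20. Gata4 in liver reached 26.4% of its FFPE heart level and 35.9% of its frozen heart level, on CPM. Hand2 reached 50.4% and 19.6%, Gata6 37.3% and 15.6%, and Tbx20 6.91% and 10.3%. The summed cardiomyocyte markers in liver stood at 0.196% and 0.22% of those in FFPE and frozen heart, and 14 and 15 of the 16 had any count there. The summed endothelial and fibroblast markers in liver stood at 20.5% and 12.3% of those in heart in FFPE tissue. In frozen tissue they stood at 27.7% and 14.6%. Several marker lists also differed between liver and kidney. In liver 12 of 14 hepatocyte markers were called higher, with a median difference of 9.22. Of the stellate cell markers 7 of 10 were called higher and 2 lower (median 2.53), and of the liver sinusoidal endothelium markers 7 of 9 were higher (median 3.54), against a median of -0.09 over all genes. Of the general endothelial markers 1 of 12 was higher and 6 lower (median -0.85), and of the fibroblast markers 3 of 11 were higher and 4 lower. Over all genes 11.5% were called higher in liver than in kidney and 17% lower. Lrat, the stellate enzyme that stores vitamin A as retinyl ester, had levels of 3.67 and 3.79 in FFPE and frozen liver, against 0.90 and 1.42 in kidney. The sum of the stellate list was not confined to liver, at 122 and 141 CPM in FFPE and frozen liver and 416 and 536 in heart. Its member Des, which also stands among the heart target genes below, had 3220 and 4598 counts in FFPE and frozen heart. Against liver, 3 of the 10 stellate markers were called higher in heart and 6 lower (22.0% and 19.5% of all genes). The part of these cells in the liver levels was not tested.

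In kidney Gata4 lay above brain, Tbx20 overlapped brain and Mef2a overlapped liver. Against the mean of the other 3 organs, 4 factors were lower in kidney (13.5% of genes): Gata4, Tbx20, Hand2 and Mef2a. That count fell to 1 without the FFPE kidney library and to 2 without the frozen one. In brain 6 factors were lower than the mean of the other 3 organs (26.4% of genes lower). Mef2a was higher there, by 0.54 ± 0.17 (limma adjusted p = 0.0255, with 30.2% of genes higher). The 6 factors lower in brain had no brain library above the filter level. They passed the filter through other organs, so their brain calls could only go one way. In kidney the same held for Gata4, Tbx20 and Hand2. The 7 brain calls numbered 6 with quantile normalization, with centring on medians and with no trend. Brain calls were also lost without either brain library, the frozen heart library or the frozen kidney library. The sum of the 14 neuron markers was higher in heart than in kidney or liver. It was 33.9 and 76.1 CPM in FFPE and frozen heart, 1343 and 1708 in brain, and 4.74 to 8.45 in kidney and liver. In FFPE heart Camk2a and Slc17a7 had 169 and 142 counts, while 5 of the 14 markers had 3 or fewer. Over kidney 7 of 14 were called higher in heart, and over liver 7 of 14 (13.4% and 22.0% of all genes). The 6 factors other than Mef2a had at most 4 counts in either brain library.

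Relatives of the 7 factors had their highest levels in various organs. Of 28 paralogs, 10 passed the filter on level. Of these, 5 were called higher in heart than the mean of the other 3 organs, none lower, and 5 were not called. The paralogs had a median difference of 0.60 against -0.15 over all genes, of which 15.9% were called higher. Tbx18, an epicardial and sinus node factor, was higher by 3.66 ± 0.69, but it passed the filter only through heart, so its call could only go one way. Mef2c, the MEF2 factor of the early heart field, was higher by 1.69 ± 0.24. Gata2 of endothelium and blood was higher by 1.53 ± 0.37, Mef2d by 0.92 ± 0.26 and Tbx3, a factor of the conduction system, by 0.81 ± 0.26 (limma adjusted p from 0.000986 for Mef2c to 0.0416 for Tbx3). Fewer paralogs were called without single libraries: 2 without either heart library and 3 without the FFPE brain or either kidney library. Tbx3 nevertheless had its highest levels in liver, 4.08 and 4.53 in FFPE and frozen tissue, against 3.30 and 2.90 in heart. Mef2c was highest in brain, at 5.84 and 5.75, against 4.90 and 4.44 in heart. Gata2 was highest in kidney, at 2.69 and 2.46 in FFPE and frozen tissue, against 2.35 and 2.12 in heart. Hand1, the partner gene of Hand2, had no count in either heart library, and the Nkx2 relatives Nkx2-3, Nkx2-4, Nkx2-6 and Nkx2-9 had none there either. Levels of different genes were not compared, since no transcript lengths were used.

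**Figure D3:**
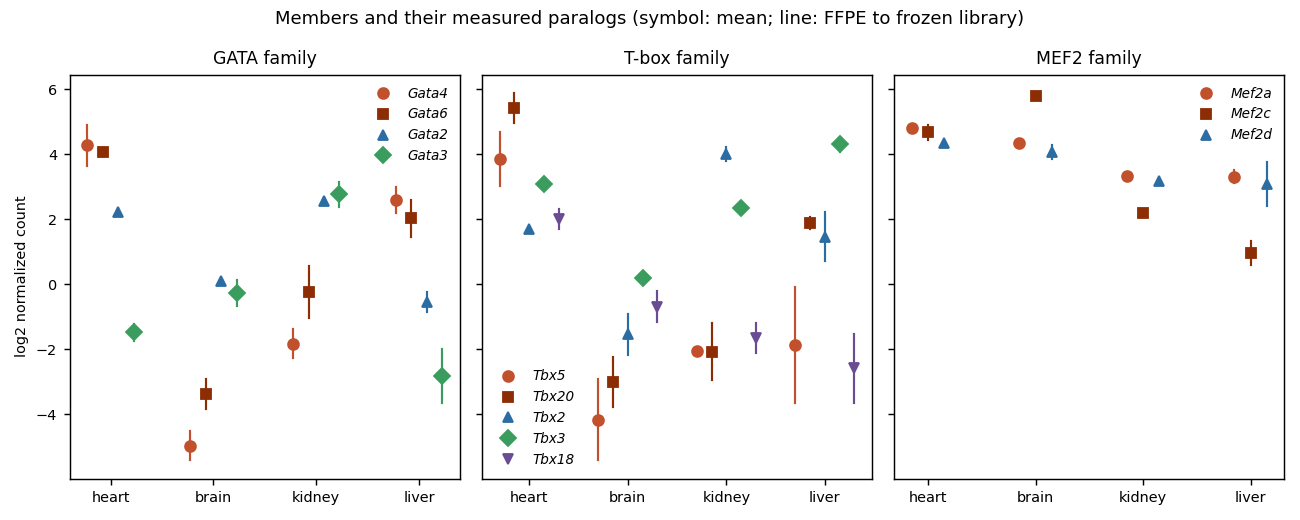
Levels (log2 normalized count) of GATA, T-box and MEF2 factors and of measured relatives by organ; symbols are the mean of the FFPE and frozen library and lines join the 2. Each gene is to be read across organs. On the authors' scaling Gata4, Gata6, Tbx5, Tbx20 and Mef2a are highest in heart. Mef2c is highest in brain, Gata2, Gata3 and Tbx2 in kidney, and Tbx3 in liver.

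Other genes that work with the set were taken from lists. All 36 target genes tested were higher in heart than the mean of the other 3 organs, where 15.9% of all genes were called higher. Their median difference was 7.96 against -0.15 over all genes. Of the 36 targets, 9 passed the filter only through heart, Nppa and Myl7 among them, so the calls of these 9 could only go one way. Many of the 36 are also heart muscle markers. Nppa, the gene of atrial natriuretic peptide and a target of GATA4, NKX2-5 and TBX5, was higher by 11.87 ± 1.10 (limma adjusted p = 8.91e-05). Myl7, an atrial myosin light chain gene, was higher by 10.02 ± 0.89 (adjusted p = 7.51e-05), Myh6, the alpha myosin heavy chain gene, by 9.78 ± 0.36 (adjusted p = 1.13e-06), and Tnni3, the cardiac troponin I gene, by 9.49 ± 0.39 (adjusted p = 1.5e-06). The smallest difference of the list was that of Adrb1, the beta-1 adrenergic receptor gene, at 1.86 ± 0.55 (limma adjusted p = 0.0302). Its levels were 2.62 and 1.68 in FFPE and frozen heart, and 2.38 and 2.46 in brain. Against single organs, 31 of the 36 targets were called higher over brain, 34 over kidney and 35 over liver. The shares of all genes were 19.1%, 13.4% and 22.0%.

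Of 25 further cardiac regulators, 24 were tested. In heart 15 were higher (15.9% of all genes), 2 lower (18.1%) and 7 not called, with a median of 1.87. Ankrd1, a muscle stress protein of the nucleus and sarcomere, led with 9.64 ± 0.71. Smyd1, a histone methyltransferase of striated muscle, was higher by 6.77 ± 0.38, Myocd, the coactivator of serum response factor, by 6.28 ± 0.47, and Irx4, a ventricular homeobox factor, by 5.60 ± 0.83 (limma adjusted p at most 0.00115 for these 4). Smyd1, Myocd and Irx4 passed the filter only through heart, so their calls could only go one way. Foxk1 and Rxra were lower, with log2 differences of -0.63 and -0.58. Without the FFPE heart library 9 regulators were called higher.

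Of 28 cofactors of the set, 27 were tested. Against the mean of the other 3 organs, 11 were higher in heart (15.9% of all genes), 2 lower (18.1%) and 14 not called. The median was 0.07. Besides Myocd, the largest differences were those of Hdac9, a class II histone deacetylase that binds MEF2 proteins, at 3.01 ± 0.43, Smarcd3, the BAF60c chromatin subunit, at 2.14 ± 0.34, and Zfpm2, the FOG2 partner of GATA4, at 2.07 ± 0.30. The general coactivators Ep300 and Crebbp differed by 0.012 ± 0.13 and -0.11 ± 0.13 and were not called (limma adjusted p = 0.955 and 0.547). Nr2f2 and Camta2 were lower, with log2 differences of -0.88 and -0.73. Without the FFPE heart library 6 cofactors were called higher. Zfpm2 and Myocd stand in both the regulator and the cofactor list. Against brain alone 5 cofactors were called higher in heart and 5 lower (19.1% and 26.3% of all genes). Zfpm2 had levels of 3.66 and 3.77 in FFPE and frozen heart, and 3.51 and 3.84 in brain. Smarcd3 had 3.62 and 2.92 in heart, and 3.10 and 3.25 in brain. Hdac9 lay above brain in both preservations.

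Signalling by bone morphogenetic proteins (BMP) switches on Nkx2-5 and Gata4 in the embryo. Of 23 genes tested among 24, 5 were higher in heart, 4 lower and 14 not called, with a median of -0.10; these shares are near the 15.9% and 18.1% called over all genes. Bmp10, a ligand made by atrial muscle, was higher by 5.54 ± 1.40 (limma adjusted p = 0.016). It passed the filter only with heart, and its 572 and 5 counts in FFPE and frozen heart stood against 5 and 17 in liver, so frozen heart lay below frozen liver. The BMP target Id1 was higher by 1.55 ± 0.40 (limma adjusted p = 0.0168) and the ligand gene Bmp6 by 1.51 ± 0.27 (adjusted p = 0.00295). Smad6, an inhibitor of the pathway, was higher by 1.21 ± 0.35 (limma adjusted p = 0.0276). Bmp6 was nevertheless highest in kidney, at 3.33 and 3.43 in FFPE and frozen tissue, against 3.01 and 3.30 in heart. Smad6 was higher in frozen kidney (2.58) than in frozen heart (2.22), but not in FFPE tissue. Of the lower genes, the ligand genes Bmp7 and Bmp2 had log2 differences of -2.29 and -1.71, the receptor gene Bmpr1b -3.16, and Id2, a target that blocks helix-loop-helix factors, -2.91.

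Heart also differed from the other organs in markers of its non-muscle cells, to a degree that varied by list. Against the mean of the other 3 organs, 15.9% of all genes were called higher in heart and 18.1% lower. All 12 endothelial markers were called higher in heart (median 2.08), as were 10 of 11 fibroblast markers (median 3.54) and 4 of 7 endocardial markers (median 1.33). Of the smooth muscle and pericyte markers 8 of 9 were higher and 1 lower, of the epicardium and mesothelium markers 2 of 6 were higher and 1 lower, with 3 of these 6 passing only through heart, and of the immune markers 2 of 7 were higher. Which heart cells carried the RNA of each factor was not tested.

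Genes with the most similar profile were ranked by the root mean square distance between levels, after centring each gene, over the 8 libraries among 11785 genes. Outside heart Nkx2-5 and Tbx5 had 0 to 9 counts in each library, where the level mostly follows library size, so their nearest genes cannot be ranked finely. Nkx2-5 lay closest to Myl3, Ckmt2 and Mb, genes of a ventricular myosin light chain, mitochondrial creatine kinase and myoglobin, at distances of 0.38, 0.48 and 0.54. Tbx5 lay closest to Asb14 (0.42), Mybphl (0.65) and Tnni3k (0.79), and Tbx20 to Lrtm1 (0.89), Mybpc2 (0.93) and Hspb6 (1.19). Gata6 lay closest to Antxr2, Dpt and Dsp, from 0.62 to 0.79, of which Dpt codes for a protein of the fibroblast matrix and Dsp for a protein of cell junctions.

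Gata4 and Hand2 had no close match. The nearest genes to Gata4 were Plin5 (1.17), which coats lipid droplets, Lrtm1 (1.22) and Gata6 (1.23), and those to Hand2 were Lrtm1 (1.31), Hjv (1.36) and Hspb8 (1.39). Mef2a had close matches in broadly measured genes, Ptpn11 (0.13), Ppp1r12c (0.15) and Plekho1 (0.16). Within the set, Gata4 and Gata6 were the closest pair, at 1.23, and Hand2 and Mef2a the farthest apart, at 3.84.

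Among annotated neighbours, Gm5563 lies wholly inside the span of Tbx5 and had 7 and 6 counts in FFPE and frozen heart, where Tbx5 had 299 and 106. The sources used here do not say whether counting used strand. Gata6os, which overlaps Gata6 by 58 bases, and Hand2os1, which lies 123 bases from Hand2, were not analysed here. Neil2, which lies 4759 bases from Gata4, had 14 and 2 counts in FFPE and frozen heart, and Lysmd4, which lies 2694 bases from Mef2a, had 55 and 66 counts there.

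The last question was whether preservation changed the recovery of these RNAs. None of the 7 was called between FFPE and frozen tissue over the 4 organs (limma adjusted p from 0.508 for Tbx5 to 0.947 for Mef2a), where 0.00673% of genes were called higher in FFPE (1 gene, Xist) and 0% lower. The largest fitted difference, FFPE minus frozen, was that of Tbx5, -1.14 ± 0.88, with a 95% interval from -3.14 to 0.87. It rests on libraries with 0 counts (FFPE brain and FFPE liver), is opposite in direction to the ratio inside heart, and ran from -2.07 to 1.25 over the alternatives, turning positive with voom weights. At an unadjusted p under 0.05, 0 of the 7 factors, 1304 higher and 1465 lower genes passed; voom, which weights each value by its count, called 1 factor, Gata4. Mef2a, measured in every library, had the narrowest interval, -0.37 to 0.32.

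Inside heart, where all 7 had over 100 counts in each library, the factors differed among themselves. With 1 library each these are ratios with exact 95% counting intervals and no test of preservation. Tbx5 was 3.15-fold higher in FFPE than in frozen heart (interval 2.51 to 3.96), Gata4 2.40-fold (1.98 to 2.90), Tbx20 1.91-fold (1.69 to 2.17) and Nkx2-5 1.62-fold (1.27 to 2.06). Mef2a and Gata6 had intervals that include equality, with ratios of 1.12 and 0.931, and Hand2 was lower in FFPE heart at 0.747-fold (0.590 to 0.943). At least a 2-fold difference was thus seen for 2 of 7 upwards and 0 of 7 downwards, where 6.06% of all genes tested passed that size upwards and 18.2% passed it downwards.

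Atrial genes moved with the upper end of that order. All 9 atrial markers were higher in FFPE than in frozen heart, with a median difference of 2.32, against 0.012 over all genes, and their sum was 1217 CPM in FFPE heart against 190 in frozen heart. Bmp10 had 572 counts in FFPE heart and 5 in frozen heart, and Nppa had 7678 and 1145. Cardiomyocyte markers in general did not move that way, with 6 of 16 higher in FFPE heart and a median of -0.16. The 5 measured erythroid genes were also all higher in FFPE heart (median 3.49), while 2 of 14 neuron markers were. The sources used here do not say from which chambers the 2 heart samples came, and the part of atrial tissue in the Tbx5 and Gata4 ratios was not tested.

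**Figure D4:**
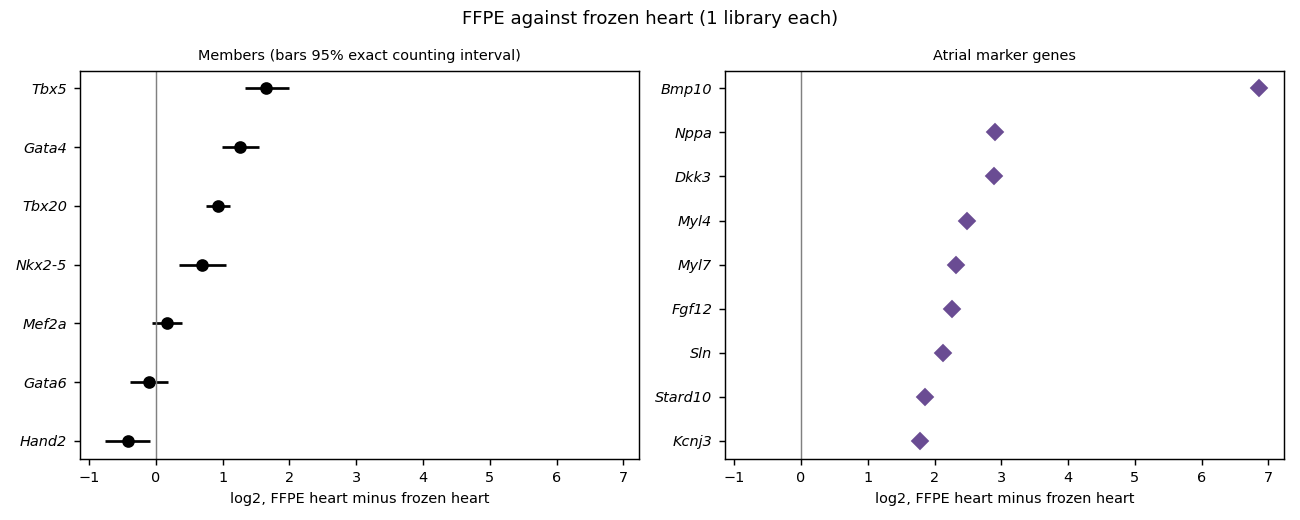
Difference between the FFPE and the frozen heart library (log2, FFPE minus frozen, horizontal axis), at left for the 7 factors with 95% exact counting intervals and at right for 9 atrial marker genes. Tbx5 and Gata4 lie highest among the factors, Hand2 lies below 0, and all 9 atrial genes lie between 1.79 and 6.86.

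In liver the FFPE library had more Gata6, at 2.23-fold (interval 1.33 to 3.80), Hand2, at 1.92-fold (1.13 to 3.29), and Gata4, at 1.76-fold (1.15 to 2.69). The intervals of Tbx20 and Mef2a include equality, and Tbx5 had 0 counts in FFPE liver against 9 in frozen liver. In kidney Gata6 was lower in FFPE tissue, at 0.316-fold (0.133 to 0.677), on 9 and 32 counts.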

How the data were processed

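The authors deposited a table of log2 normalized counts, named for m6A, with 1 column per organ and preservation; the tools named in the submitters' processing notes are HISAT2, featureCounts and limma, with build mm10 and no version or setting. Each deposited value is the log2 CPM of a count plus 0.5 on a rescaled library size: 100% of values turned back into whole gene counts within 0.001. The labels list 2 runs per group, and the sources used here do not say whether a column holds 1 of them or both. A further 8 columns match no listed sample and were not used.

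Levels were fitted as deposited with limma 3.58.1 (R 4.3.3), organ plus preservation, 3 residual degrees of freedom and a trended eBayes prior, over 14864 genes with log2 above 0 in at least 2 libraries, adjusted by Benjamini-Hochberg; the fit was tested on simulated data. Floors are 3 counts and intervals are exact at 95%; both cover counting error only, and reads are not independent molecules. Named genes are the members, annotated genes within 5 kb of them, any paralog, the 3 nearest profiles of each member and, per list, up to 4 called genes each way by size; Adrb1, Ep300, Crebbp, Lrat, Xist and Ddx3y were chosen after their values were seen. The members and lists were chosen with earlier results of these data known. Alternatives were other scalings, filters, added counts, weights and left-out libraries. Liver against kidney and against brain were added after seeing the data. Sequences are RefSeq's (GRCm38.p6).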

Additional observations from a re-analysis of the deposited data

Results flagged for a closer look

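For 3 factors the FFPE and frozen libraries differed in opposite directions in 2 organs, with counting intervals off 0 in both; with 1 library per group the difference between organs was not tested. Tbx5 was higher in FFPE than in frozen heart (299 and 106 counts) and lower in FFPE than in frozen liver (0 and 9 counts), and the log2 difference, FFPE minus frozen, was 5.23 larger in heart than in liver. That size depends on the 0.5 added to the 0 counts of FFPE liver; the counts themselves bound the liver ratio at no more than 0.803, beside a ratio of 3.15 in heart. Gata6 was higher in FFPE than in frozen liver (38 and 27 counts) and lower in FFPE than in frozen kidney (9 and 32 counts), with a gap of 2.76 between the organs. Hand2 was higher in FFPE than in frozen liver (34 and 28 counts) and lower in FFPE than in frozen heart (124 and 185 counts), with a gap of 1.36.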

How the results depend on the processing

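Over 49 differences of single factors and 868 recomputed values, 798 kept their direction and their side of the threshold, 18 lost the call and 17 gained it. The other 35, in 11 differences, turned sign or came to 0, and 0 of these were called either way. With total scaling these were Mef2a in heart against brain (-0.88), Tbx5 and Nkx2-5 in liver against kidney (-1.11 and -0.71) and Nkx2-5 in liver against brain (-0.052); with scaling outside ribosomal genes the first 3 were -0.033, -0.73 and -0.33. Nkx2-5 in liver against kidney was 0.0 with quantile normalization, and Mef2a there was 0.15 centred on medians and 0.0049 with voom. For FFPE against frozen, voom gave 1.25 for Tbx5 and 0.037 for Mef2a, Hand2 was 0.088 with 2 counts added, and without both brain libraries Tbx20, Nkx2-5 and Hand2 were -0.15, -0.021 and 0.23. With 1 library left out, liver against kidney ran from -1.45 to 1.81 for Tbx5, -0.47 to 1.63 for Nkx2-5 and -0.29 to 0.22 for Mef2a, and FFPE against frozen from -0.87 to 0.045 for Gata6, -0.15 to 0.94 for Tbx20, -0.027 to 0.68 for Nkx2-5, -0.63 to 0.23 for Hand2 and -0.085 to 0.11 for Mef2a. For heart against the other 3 organs, the calls held in every alternative except with libraries scaled by total gene counts. There Mef2a fell out (0.59, limma adjusted p = 0.295). That scaling put the median of all genes at -0.69 instead of -0.15. It moves all genes of a library alike, so the distance of Mef2a from the median could not change and says nothing about the lost call. Gata4 in heart against liver gained a call in 7 alternatives (adjusted p from 0.00108 to 0.427 over all), and Gata6 lost it in 5. Gata6 in liver against kidney lost its call in 7 alternatives. Leaving out 1 library at a time, kidney calls ran from 1 to 5, liver calls from 2 to 5 and calls of heart over liver from 2 to 6. With voom weights 1 factor, Gata4, was called higher in FFPE (1.10, adjusted p = 0.042). Genes higher in heart numbered 1107 with total scaling and 1094 to 2594 with a library left out (fewest without FFPE heart); genes lower in heart numbered 1402 to 2859. Genes higher in FFPE numbered 2 with quantile normalization, 31 with total scaling, 11 with scaling outside ribosomal genes, 70 with 2 counts added, 7 with no filter, 0 with no trend, 266 with voom and 1 to 5 with a library left out. Genes lower in FFPE numbered 178, 32, 35, 3 and 152 with total scaling, scaling outside ribosomal genes, 2 counts added, no filter and voom. The 15 other regulators, 11 cofactors and 5 paralogs higher in heart numbered 9, 6 and 2 with total scaling. The causes were not tested. No paired analysis was possible because the columns carry no run number. Depth limits the factors outside heart and liver, where all but Mef2a had at most 32 counts.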
